A study of Homo sapiens with 11 samples.

Results

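The HDAC2 peak list from SK-N-MC cells holds 20633 peaks, of 134925 peaks in the 9 lists of the series. Every peak of that list was taken, with no filter beyond the authors' peak calling. SK-N-MC is an established human cell line of Ewing sarcoma, a bone and soft-tissue tumour driven by the EWSR1::FLI1 fusion protein, and all 11 samples came from it and were labelled wildtype, with no treatment given. One sample each was immunoprecipitated with antibodies to the proteins HDAC2 (Abcam ab7029), MTA2, RBBP4 and FLI1 (C-19) or to the histone marks H3K4me3, H3K27ac, H3K4me1 and H3K27me3, and CHD4 was pulled down through a Flag tag (clone M2) in a sample also labelled wildtype, and the labels do not say where that tag came from. The 2 remaining samples were inputs, which have no peak list here. Chromatin was crosslinked in 2 steps, by a protein crosslinker and by formaldehyde, which can also hold proteins that do not touch DNA themselves. Each target was measured in 1 sample and read depth is unknown. No value below therefore has a replicate error, no test was run, and the 95% Wilson intervals in parentheses cover counting error over peaks or genes only.

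HDAC2 is a zinc-dependent enzyme that removes acetyl groups from histone tails, and it has no DNA-binding domain of its own. It is brought to chromatin in several complexes, among them NuRD (with the ATPase CHD4, the scaffold MTA2 and the histone-binding RBBP4), SIN3, CoREST and MiDAC. HDAC2 and its partners are found both at active promoters and enhancers and at silenced genes, and in Ewing sarcoma NuRD has been studied as a partner of EWSR1::FLI1. An HDAC2 peak alone does not show which complex was present.

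The cell identity was checked first at the starts of marker genes, where a gene counted as having HDAC2 if a peak lay within 1 kb of any of its starts (for genes with no start in the RefSeq promoter table, of either annotated end). Over all 20033 protein-coding genes, 7940 (39.6%) met this rule. All 6 Ewing markers met it, with a fold enrichment (the peak caller's ratio of signal at the summit to local background) of 6.50 at CCND1, 5.29 at CD99, 5.03 at NR0B1, 5.02 at NKX2-2, 4.67 at PRKCB and 4.63 at STEAP1. Of the 6, CD99 was without an H3K4me3 or H3K27ac peak at its start. The muscle markers MYOD1, MYOG and DES, the blood markers PTPRC, CD3E and SPI1 and the epithelial markers EPCAM, KRT5, CDH1 and GRHL2 did not meet the rule. Of the remaining markers, HDAC2 was found at MITF of the melanocyte set (4.78) and at PDGFRA of the fibroblast set (5.55), and not at TYR, PMEL, DCN, LUM or COL1A1.

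The promoters that follow are the stretch of 250 bases before the start, read 5′ to 3′ on the gene's own strand, from the RefSeq promoter table on GRCh38. They were picked after the values were seen to show the contrast described further on, between promoters with tall and with low HDAC2 peaks. Capitals mark letters of the 12 short motifs searched, which in these promoters were the ETS core CCGGAAGT, the GC box GGGGCGGG and the GGAA pair GGAAGGAA, on either strand. A match is a run of letters and not a bound site. The first 4 are among the strongest gene-start peaks. PIK3CD encodes a catalytic subunit of phosphoinositide 3-kinase, MAD2L2 an adaptor in DNA repair and mitosis, and CDYL a chromodomain corepressor. The HDAC2 peak overlapping each has a fold enrichment of 15.5 at PIK3CD, 12.6 at SLC9D1, 12.5 at MAD2L2 and 12.1 at CDYL.
PIK3CD, chr1:9651481-9651730, plus strand: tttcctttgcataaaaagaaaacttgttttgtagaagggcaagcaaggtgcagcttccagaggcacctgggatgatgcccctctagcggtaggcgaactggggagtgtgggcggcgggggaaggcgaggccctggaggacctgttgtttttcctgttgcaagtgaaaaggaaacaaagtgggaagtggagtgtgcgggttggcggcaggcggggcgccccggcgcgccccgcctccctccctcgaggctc
SLC9D1, chr13:113490771-113491020, plus strand: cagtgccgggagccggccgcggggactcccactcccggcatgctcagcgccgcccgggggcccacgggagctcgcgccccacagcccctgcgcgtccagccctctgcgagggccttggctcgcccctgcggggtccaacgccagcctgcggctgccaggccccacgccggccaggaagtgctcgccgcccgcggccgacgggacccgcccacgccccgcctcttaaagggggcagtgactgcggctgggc
MAD2L2, chr1:11691560-11691809, minus strand: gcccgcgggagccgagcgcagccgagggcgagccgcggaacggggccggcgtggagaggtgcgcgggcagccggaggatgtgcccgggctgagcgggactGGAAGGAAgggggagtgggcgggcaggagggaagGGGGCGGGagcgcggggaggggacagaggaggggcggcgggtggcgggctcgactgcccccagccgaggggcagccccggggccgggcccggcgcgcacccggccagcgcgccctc
CDYL, chr6:4776154-4776403, plus strand: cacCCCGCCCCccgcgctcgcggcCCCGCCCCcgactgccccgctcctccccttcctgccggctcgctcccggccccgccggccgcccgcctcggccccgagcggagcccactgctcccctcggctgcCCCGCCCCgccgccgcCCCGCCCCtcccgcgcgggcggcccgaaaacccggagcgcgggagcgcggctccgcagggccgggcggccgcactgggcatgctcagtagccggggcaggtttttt
The PIK3CD promoter holds 14 CpG dinucleotides in the bases shown and none of the motif letters, and the SLC9D1 promoter holds 30 CpG and none of the letters. MAD2L2 holds 33 CpG with 1 GC box and 1 GGAA pair, and CDYL holds 39 CpG with 4 GC boxes. The CDYL peak ends at chr6:4776227, upstream of the 2 GC boxes nearest the start, which are thus not under the peak. Most of the CDYL bases shown also lie outside the peak. HPRT1, a purine salvage enzyme used as a housekeeping gene, has an HDAC2 peak of 7.30 with no CHD4, MTA2 or RBBP4 peak at its start, and its promoter holds 2 GC boxes.
HPRT1, chrX:134459915-134460164, plus strand: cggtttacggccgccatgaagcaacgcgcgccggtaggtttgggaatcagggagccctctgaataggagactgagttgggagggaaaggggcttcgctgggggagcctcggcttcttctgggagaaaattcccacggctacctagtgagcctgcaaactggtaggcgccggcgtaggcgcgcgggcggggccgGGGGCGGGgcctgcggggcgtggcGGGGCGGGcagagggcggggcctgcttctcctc
The next 3 are the promoters with the ETS letters and the highest H3K4me3 among those in the weakest quintile by HDAC2 fold enrichment. EIF5A, a translation factor, stands at 3.67, the adaptor subunit AP3S2 at 3.45 and the lysosomal transporter ABCB9 at 3.53.
EIF5A, chr17:7308123-7308372, plus strand: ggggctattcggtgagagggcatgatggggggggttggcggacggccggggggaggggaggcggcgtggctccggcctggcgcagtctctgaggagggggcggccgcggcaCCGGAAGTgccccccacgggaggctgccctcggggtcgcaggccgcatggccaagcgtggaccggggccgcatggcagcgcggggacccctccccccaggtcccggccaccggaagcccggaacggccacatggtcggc
AP3S2, chr15:89893995-89894244, minus strand: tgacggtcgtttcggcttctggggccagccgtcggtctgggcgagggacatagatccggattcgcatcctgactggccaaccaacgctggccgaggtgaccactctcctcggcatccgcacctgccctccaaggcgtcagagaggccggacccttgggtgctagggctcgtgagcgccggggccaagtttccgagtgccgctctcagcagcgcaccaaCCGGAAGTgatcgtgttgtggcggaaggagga
ABCB9, chr12:122974570-122974819, minus strand: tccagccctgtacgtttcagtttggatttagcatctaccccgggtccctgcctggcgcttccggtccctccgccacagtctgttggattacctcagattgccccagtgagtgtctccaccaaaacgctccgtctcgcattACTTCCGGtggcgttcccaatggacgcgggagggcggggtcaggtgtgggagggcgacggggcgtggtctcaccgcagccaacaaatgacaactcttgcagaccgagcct
Their ETS letters begin 139, 32 and 110 bases before the start. The EIF5A peak starts at chr17:7308353, downstream of its ETS letters, which are thus not under the peak. RPL11, a protein of the large ribosomal subunit, has H3K4me3 at 26.1 and H3K27ac at 13.5 but no HDAC2 peak. Its promoter holds 13 CpG and none of the letters.
RPL11, chr1:23691529-23691778, plus strand: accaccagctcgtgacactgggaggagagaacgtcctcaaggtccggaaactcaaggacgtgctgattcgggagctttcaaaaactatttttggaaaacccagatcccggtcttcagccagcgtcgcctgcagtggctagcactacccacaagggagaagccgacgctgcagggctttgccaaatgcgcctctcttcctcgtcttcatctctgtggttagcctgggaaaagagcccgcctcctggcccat

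Most HDAC2 peaks were narrow and of moderate height. The median fold enrichment was 5.08 (quartiles 4.27 and 6.16), from 2.14 in mitochondrial DNA to 19.5, and the median width was 449 bp (quartiles 320 and 664 bp). The list covered 11.45 Mb. These were the authors' own peak values and served to rank and describe peaks within the list. The −log10 p of the peaks ran from 9.01 to 159.4 with a median of 20.9, and it ranked the peaks in part differently from fold enrichment, with a rank correlation over the peaks of 0.68. Another HDAC2 peak lay within 1 kb of 23.04% (22.5 to 23.6) of the peaks and within 12.5 kb of 48.6%, and the median gap to the nearest one was 13640 bp.

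The tallest HDAC2 peak stood in a region without any of the 4 histone marks. It lay at chr1:4428584-4429626 (GRCh38), 225 kb from the start of AJAP1, with a fold enrichment of 19.5 and an MTA2 peak of 7.79 but no CHD4 or RBBP4 peak. Other tall peaks outside genes were one 7.46 kb from BMPR1A, a bone morphogenetic protein receptor (16.6), one 209 kb from TMX3 (15.8) and one 356 kb from MYOM2 (15.6). These 3 carried CHD4, MTA2, RBBP4 and FLI1 peaks as well. Of the 10 tallest peaks outside genes, the AJAP1 and CFAP299 peaks were without FLI1. Within this group the other subunits and FLI1 thus lay under most of the peaks, and the tallest one was an exception.

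Inside genes and away from starts, the tallest peak lay at chr19:49987086-49987565 in VRK3, with 15.5 and none of the other 8 lists. It was followed by peaks in the ion channel gene ASIC2 (14.4), in PLCXD3 (14.2), in the guidance gene SEMA3D (13.8) and in the glycosyltransferase gene MGAT5B (13.6). The PLCXD3 peak overlapped all 3 other subunits, FLI1, H3K27ac and H3K4me1, with an MTA2 fold enrichment of 16.0. The NDST3, FTO, CCDC88C and ERC2 peaks, at 12.9 to 13.4, overlapped CHD4, MTA2 and RBBP4 but no histone mark. The CASZ1 peak (13.2), 1.09 kb from an annotated end of that gene, overlapped H3K4me3, MTA2 and RBBP4.

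At gene starts, PIK3CD apart, the tallest peaks were lower than in the other places. After PIK3CD, SLC9D1 and MAD2L2 came LOC105373397 (12.4), the transcription factor gene ATOH8 (12.3), the lamin B receptor gene LBR (12.3), CDYL (12.1), LYPD6B (11.6), the repressor gene KLF3 (11.3) and CEBPD (11.2). The PIK3CD peak, chr1:9651520-9652607, overlapped H3K27me3 and MTA2 and no H3K4me3. KLF3 and CEBPD have no listed start, and their peaks lay over an annotated end. CDYL alone of the 10 was without any other subunit, and none of the 10 overlapped FLI1. Of the 10, 7 overlapped H3K4me3, the exceptions being PIK3CD, LOC105373397 and LYPD6B.

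The widest nuclear peaks lay over annotated gene starts or ends. They were 5672 bp at MYC, the cell growth regulator, 4839 bp at the phosphatase gene CTDSP1, 4229 bp at LRATD2, 4151 bp at CYP1B1 and 3908 bp at FEZF1. All 5 overlapped CHD4, MTA2, RBBP4, H3K27ac and H3K4me3. Mitochondrial DNA held 6 peaks, the widest 7588 bp, with fold enrichments from 2.14 to 3.74. All 6 overlapped RBBP4. The MTA2 list, in which 82 peak numbers are not present, holds no mitochondrial peak, so none of the 6 could overlap it. At the other end, the peaks of smallest −log10 p lay at the starts of THRA (3.30), RBM12B (3.37), SRRM1 (2.46) and ANKRD13C (2.69) and inside HKDC1 (3.69).

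Gene starts held the largest single share of HDAC2 peaks, and these were wider but lower than the rest. Of the 20633 peaks, 8755 (42.4%, 41.8 to 43.1) lay within 1 kb of a protein-coding gene start, 6012 (29.1%, 28.5 to 29.8) lay inside a gene away from its start and 5853 (28.4%, 27.8 to 29.0) lay outside genes. Median fold enrichment was 4.70 at starts, 5.398 inside genes and 5.44 outside, and median width was 501, 416 and 426 bp. Away from starts, 57.6% of peaks were within 50 kb of a start and 95.8% within 500 kb. The share at starts was higher than that of the CHD4 list (17.7%), the MTA2 list (30.1%) or the RBBP4 list (34.6%), and the intervals did not overlap (17.1 to 18.4, 29.3 to 30.9 and 33.8 to 35.4). These lists differ in length and in their smallest −log10 p, and their depths are unknown.

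Peak height and place were linked, but how strongly depended on the measure of height. Peaks were ranked into quintiles, 5 groups of equal size. In the lowest quintile by fold enrichment 59.3% lay at gene starts, and in the highest quintile 22.8%. Among the 100 tallest peaks 8 lay at starts, 36 inside genes and 56 outside. Ranked by −log10 p, the share at starts was 41.9% in the lowest quintile, 46.6% in the middle one and 36.2% in the highest, and the median −log10 p was 20.8 at starts, 20.8 inside genes and 21.2 outside. The start share thus went down step by step with fold enrichment, a ratio to local background, but not with −log10 p. The background coverage was not analysed here.

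**Figure D1:**
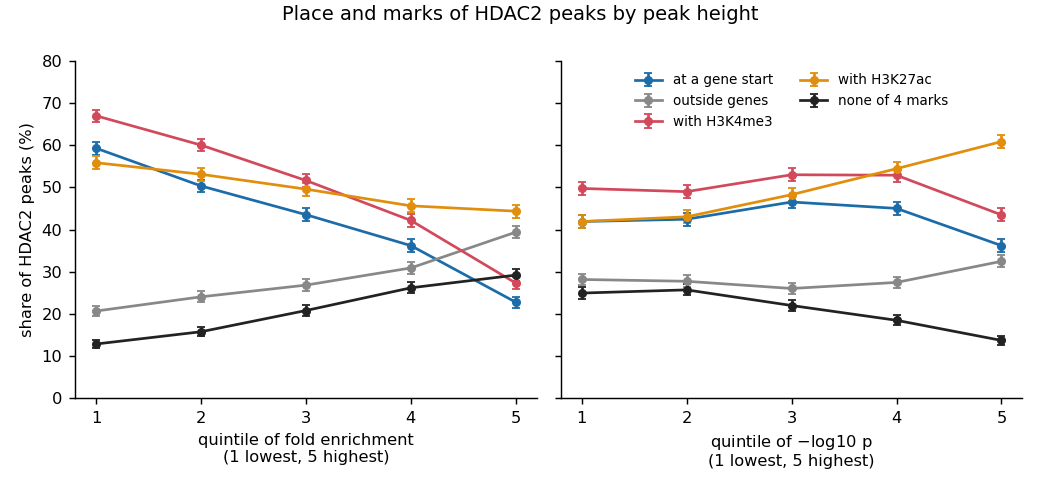
Share of HDAC2 peaks (%) at gene starts, outside genes, with H3K4me3, with H3K27ac and with none of the 4 marks, in quintiles (5 groups of equal size) from the lowest to the highest by fold enrichment (left) and by −log10 p (right); points are shares and bars 95% Wilson intervals. The share at gene starts runs from 59.3% to 22.8% on the left and from 41.9% to 36.2% on the right, and H3K27ac runs down on the left and up on the right.

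H3K4me3 lay under nearly all HDAC2 peaks at gene starts, and elsewhere the histone marks were mixed. H3K4me3, the mark of promoters, overlapped 49.6% (49.0 to 50.3) of HDAC2 peaks by at least 1 bp. H3K27ac, the acetyl mark of active promoters and enhancers, overlapped 49.7% (49.0 to 50.4), and H3K4me1, found at enhancers, 24.5% (23.9 to 25.1). H3K27me3, the Polycomb mark, overlapped 0.494% (0.407 to 0.600). At gene starts 93.6% of HDAC2 peaks had H3K4me3, 65.0% H3K27ac and 2.67% H3K4me1. Away from starts the shares were 17.2%, 38.5% and 40.6%. None of the 4 marks lay under 31.2% of the HDAC2 peaks inside genes and 36.1% of those outside genes, the largest class in both places. The H3K27me3 list was short, with 3420 peaks over 2.379 Mb against 16089 to 31247 peaks for the other marks, which limits the overlap with it. Counted by gene, HDAC2 was at 167 of 508 starts with H3K27me3 (32.9%, 28.9 to 37.1) and at 150 of 300 with both H3K27me3 and H3K4me3 (50.0%, 44.4 to 55.6), against 39.6% of all genes and 65.9% of those with H3K4me3.

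Sorted into classes, 6775 HDAC2 peaks had H3K4me3 with H3K27ac, 3389 had H3K4me3 without H3K27ac or H3K27me3, 3484 had H3K27ac without H3K4me3 and 2560 had H3K4me1 alone. A further 4323 (20.95%, 20.4 to 21.5) had none of the 4 marks. The unmarked peaks were narrow, with a median width of 344 bp against 569 bp for H3K4me3 with H3K27ac, but their median fold enrichment, 5.57, was the highest of these 5 classes. Their median −log10 p, 19.2, was the lowest of the 5. Besides AJAP1, BMPR1A and VRK3, the tallest unmarked peaks lay 27.8 kb from CFAP299 (15.0) and 593 kb from ZNF385D (13.7), both with all 3 other subunits.

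In the H3K4me3 class without acetylation, the tallest after CASZ1 and CDYL were at CEBPD (11.2) and SERTAD4 (11.1). Next came a peak of 11.1 with its summit inside LRRC26, over an annotated end of the glutamate receptor gene GRIN1, which has no listed start. The 78 peaks with H3K4me3 and H3K27me3 together included TPBGL (10.2), the potassium channel gene KCNQ3 (10.1), FIBCD1 (8.69), PAQR9 (8.68) and NOTUM (8.44). Peaks with H3K27me3 and no H3K4me3 numbered 24. After PIK3CD the tallest were in the neurexin gene NRXN2 (7.88), in the phosphodiesterase gene PDE3A (7.30), at the lipid receptor gene LPAR3 (7.21) and at RASL10A (6.74), none of which had another subunit.

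H3K4me1 flanked the HDAC2 summits more than it covered them. Away from starts, the HDAC2 summit fell inside an H3K4me1 peak in 13.0% of cases (12.4 to 13.6). In a further 23.4% (22.6 to 24.2) the summit was outside but H3K4me1 peaks lay within 1 kb on both sides, and in 26.5% on 1 side. For H3K27ac away from starts the summit was inside in 24.3% and flanked on both sides in 7.60%. The H3K4me1 overlap of 40.6% at these peaks thus came largely from their edges.

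The mark shares along the height ranking also depended on the measure. From the lowest to the highest quintile by fold enrichment, H3K4me3 ran from 67.0% to 27.3%, H3K27ac from 55.9% to 44.4% and unmarked peaks from 12.8% to 29.2%. By −log10 p, H3K27ac ran the other way, from 41.9% to 60.9%, and unmarked peaks ran from 24.9% to 13.7%. H3K4me3 stood at 49.8% in the lowest quintile, 53.0% in the middle one and 43.5% in the highest. Of these 3, only H3K4me3 was lower at the top than at the bottom in both rankings.

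The other NuRD subunits were found more often at taller HDAC2 peaks, whichever measure of height was used. Over the whole list MTA2 overlapped 47.0% (46.3 to 47.7), RBBP4 44.4% (43.7 to 45.1) and CHD4 38.8% (38.2 to 39.5). From the lowest to the highest quintile by fold enrichment, MTA2 ran from 37.1% to 66.8%, RBBP4 from 38.3% to 57.7% and CHD4 from 27.1% to 56.3%. By −log10 p the same shares ran from 26.0% to 78.5%, from 22.1% to 75.2% and from 21.9% to 67.7%. All 3 were present at 24.0% (23.5 to 24.6) of HDAC2 peaks, and these were taller and wider than HDAC2 peaks with none of the 3. Their medians were 5.82 and 615 bp against 4.85 and 354 bp. A wide peak has more room to overlap another list, and with the HDAC2 summit required inside the other peak all 3 were present at 19.0%.

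Place went with which subunits shared an HDAC2 peak. At gene starts CHD4 was at 21.2%, MTA2 at 36.1% and RBBP4 at 41.6% of HDAC2 peaks, and 41.4% had none of the 3. Outside genes the order was changed, with MTA2 at 57.1%, CHD4 at 55.6% and RBBP4 at 49.5%, and all 3 were present at 35.4% (34.1 to 36.6) against 11.9% (11.2 to 12.6) at starts. HDAC2 peaks with RBBP4 as their sole other subunit numbered 1709, of which 77.3% lay at gene starts. Those with CHD4 and MTA2 but not RBBP4 numbered 953, of which 17.5% lay at starts. Among chromatin classes, peaks with H3K27ac and no H3K4me3 had the highest subunit shares of the 5 large classes, with MTA2 at 77.1% and CHD4 at 72.2%. Peaks with H3K4me3 and no acetylation had the lowest, with MTA2 at 24.5% and CHD4 at 16.9%.

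FLI1, the DNA-binding end of the fusion, lay under a small and tall subset of HDAC2 peaks. It overlapped 1075 of them (5.21%, 4.92 to 5.52), of which 378 lay inside genes, 617 outside genes and 76 at gene starts. Those with FLI1 had a median fold enrichment of 6.72 and those without 5.02. The FLI1 share was 1.31% in the lowest quintile by fold enrichment and 14.3% in the highest, and 1.99% and 14.1% by −log10 p. Of the 100 tallest HDAC2 peaks, 47 overlapped FLI1. At gene starts FLI1 overlapped 0.868% of HDAC2 peaks, and there the median was 4.59 with FLI1 and 4.70 without. HDAC2 peaks with FLI1 also carried MTA2 in 92.6%, CHD4 in 87.0% and H3K27ac in 73.2%. FLI1 overlapped 20.2% of HDAC2 peaks with H3K27ac and no H3K4me3, and 4.34% of those with H3K4me1 alone.

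**Figure D2:**
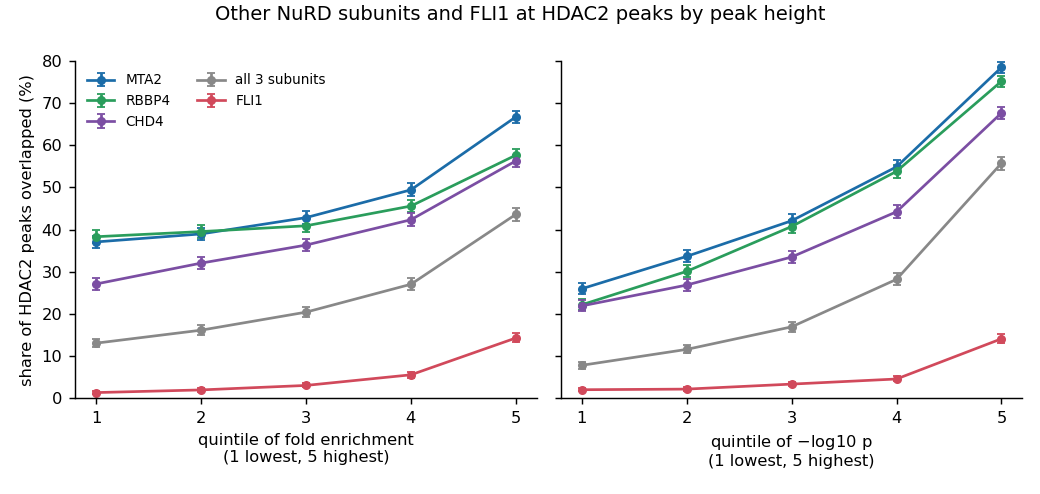
Share of HDAC2 peaks (%) that overlap MTA2, RBBP4, CHD4, all 3 subunits together or FLI1, in quintiles of the HDAC2 list by fold enrichment (left) and by −log10 p (right); points are shares and bars 95% Wilson intervals. In both rankings each share is highest in the top quintile, where MTA2 reaches 66.8% on the left and 78.5% on the right.

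HDAC2 summits at gene starts were most frequent just downstream of the start and again further upstream, with fewer in between, where the MTA2 list was highest. The positions were read from 6987 HDAC2 summits within 1 kb of a start listed in the RefSeq promoter table, with negative values upstream. In bins of 50 bp the share of HDAC2 summits was 6.40% from −200, 3.81% from −100 and 11.7% from 50. The bin from −100 was the highest one of the MTA2 list, with 19.3% of its summits. The first 200 bases of the gene held 35.1% (34.0 to 36.2) of the HDAC2 summits, the 150 bases just upstream 13.8% (13.0 to 14.7), and the 150 bases before those 15.6% (14.8 to 16.5). The 150 bases just upstream held 48.9% (47.2 to 50.6) of MTA2 summits, 33.5% of RBBP4 summits and 22.9% of CHD4 summits. Median summits were 42 bp for HDAC2, −86 bp for MTA2, −42 bp for RBBP4 and −112.5 bp for CHD4, while those of H3K27ac and H3K4me3 lay further into the gene, at 167 and 235 bp.

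The dip just upstream was smaller or absent in some subsets. At the 3681 HDAC2 summits whose start had no end or start of another gene within 2 kb, the 150 bases just upstream held 14.4% (13.3 to 15.6) and the 150 bases before those 16.5% (15.4 to 17.8), and in peaks narrower than 500 bp the shares were 13.1% and 14.4%, both pairs with overlapping intervals. With a −log10 p of at least 15 they were 13.1% and 16.2%. In the lowest quintile by fold enrichment they were 16.9% and 16.8%, and in HDAC2 peaks without MTA2 12.6% and 12.2%, so there the window just upstream was not the lower of the pair. The excess in the first 200 bases of the gene, 32.8% to 36.8% of summits, was present in all of these subsets and in peaks with MTA2. HDAC2 peaks with a summit in the more distant upstream window overlapped MTA2 in 50.1% and CHD4 in 25.1%, and those with a summit in the first 200 bases of the gene in 33.9% and 15.4%. Their median fold enrichment was 4.61 in both, and H3K27ac was present at 64.0% and 65.9%. Of the 5277 genes with a summit within 500 bp of a listed start, 373 (7.07%) had them on both sides.

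**Figure D3:**
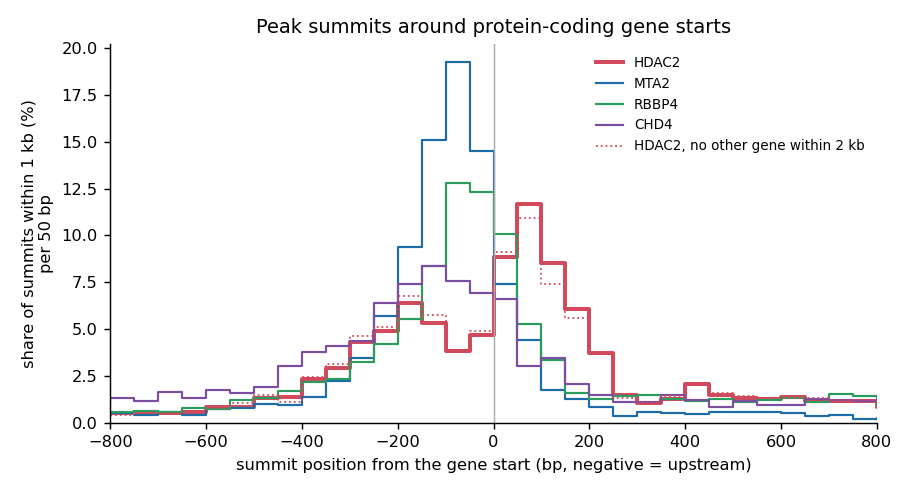
Position of peak summits relative to protein-coding gene starts (bp, 50 bp bins, negative upstream) as a share (%) of the summits of each list within 1 kb, for HDAC2, MTA2, RBBP4 and CHD4, with the HDAC2 summits at starts that have no other gene within 2 kb dotted. HDAC2 has its highest bin at 50 to 100 bp downstream (11.7%) and a low bin at −100 (3.81%), where MTA2 is highest (19.3%).

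Genes with HDAC2 at the start were mostly genes with H3K4me3 there. Of 11654 genes with H3K4me3 at a start, 65.9% had HDAC2. Of the genes with HDAC2, 255 had no H3K4me3 at a start, and of these 90 had H3K4me1, 53 H3K27ac and 7 FLI1. The tallest, chosen by height after the values were seen, were LOC105373397 and LYPD6B, followed by the serotonin receptor gene HTR5A (10.9), the activity-regulated factor gene NPAS4 (10.7), the enamel protein gene AMBN (9.85), MUC15 (9.62), HHIPL2 (9.16), the serotonin receptor gene HTR3B (9.01) and the T-box factor gene EOMES (8.96). Of these 9, HTR5A and MUC15 had no peak of another subunit at the start. Among genes with H3K27ac at the start, HDAC2 was present at 68.8% (66.5 to 71.1) in the lowest quintile by H3K27ac fold enrichment and at 76.4% (74.2 to 78.4) in the highest. More acetylation at a start thus went with a slightly higher HDAC2 share, in the same cells.

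Gene lists are described by their counts beside the 39.6% of all protein-coding genes and the 65.9% of those with H3K4me3. Of 18 genes for NuRD subunits and partners 12 had HDAC2 at the start, led by the NuRD-binding factor PWWP2A (9.75), MTA3 (6.36), CHD3 (6.30), PWWP2B (6.05), ZMYND8 (5.37) and RBBP4 (5.35). CHD4, HDAC1 and CDK2AP1 were among the 6 without. Of 18 genes for other HDAC2 complexes 12 had it, led by the CoREST scaffold genes RCOR1 (7.74) and RCOR3 (7.21) and by PHF21A (6.62), and BRMS1, DNTTIP1 and RCOR2 had none. Among other deacetylases 11 of 16 had it, with SIRT4 (6.75), SIRT5 (5.76) and HDAC7 (5.51) the highest, and HDAC3, HDAC11 and SIRT1 without. Among acetyltransferases and bromodomain readers 10 of 18 had it, with KAT6A (9.95) and BRPF1 (6.09) the highest. All 18 of that last list had H3K4me3, and 55.6% with HDAC2 was below the share of all H3K4me3 genes, though its interval (33.7 to 75.4) includes it.

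All 3 Ewing lists had HDAC2 at a larger share of starts than all genes (39.6%), though the 95% interval of the repressed list includes that share. Of 34 genes listed as activated by EWSR1::FLI1, 21 had it (61.8%, 45.0 to 76.1), with a median fold enrichment of 5.68 against 4.81 over all genes with HDAC2. The highest were the Polycomb methyltransferase gene EZH2 (7.69), JAK1 (7.10), E2F3 (7.06), BCL11B (6.99), FCGRT (6.81) and the cyclin gene CCND1. ALPL, CCK and CHODL had none. Of 27 genes listed as repressed by the fusion, 14 had it (51.9%, 34.0 to 69.3), with FOXO1 (9.12), the cell cycle inhibitor gene CDKN1A (7.17), CCN1 (6.39), ZYX (6.19), TNC (5.93) and LOX (5.78) the highest. COL1A1, COL1A2 and COL3A1 had none. CDKN1A also carried H3K27me3 (6.15) and all 3 other subunits. The core circuit and surface list had 13 of 15 (86.7%, 62.1 to 96.3), led by LINGO1 (7.51), BCL11B (6.99), RREB1 (6.39), SOX6 (5.91), MEIS1 (5.85) and IL1RAP (5.64), with ADGRG2 and CDH2 without. BCL11B, SOX6, STEAP1, CD99 and NKX2-2 stand in more than 1 of these lists, so the counts are not independent. Among members with H3K4me3, HDAC2 was present at 20 of 26 activated (76.9%), 14 of 19 repressed (73.7%) and all 12 core genes (100%). These counts are small and no interval was computed for them. All 3 shares lay above the 65.9% of all genes with H3K4me3, and whether they differ from it was not tested.

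Cell cycle, DNA damage, housekeeping and immediate early genes all had HDAC2 at a larger share of starts than the 39.6% of all genes, and the interval of each list includes the 65.9% of genes with H3K4me3. Cell cycle and replication genes had HDAC2 at 27 of 35 starts (77.1%, 61.0 to 87.9), with CCNE2 (6.70), CDK6 (6.43), CDC25A (6.11) and PCNA (6.01) the highest, and DNA damage response genes at 19 of 25 (76.0%, 56.6 to 88.5), with MSH6 (6.14) and ATM (5.99) the highest. Their median fold enrichments, 4.41 and 4.43, were below the 4.81 of all genes with HDAC2. Housekeeping genes had it at 20 of 30 (48.8 to 80.8), with HPRT1, REEP5 (6.70) and PPIA (6.31) the highest and ACTB, CHMP2A and EMC7 without. Immediate early genes, which respond within minutes to growth signals, had it at 16 of 20 (58.4 to 91.9), with KLF10 (8.10), EGR2 (6.90), IER3 (6.24) and JUND (6.15) the highest and ATF3, FOS and FOSB without.

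Ribosomal protein genes stood low. HDAC2 was at 7 of 40 starts (17.5%, 8.75 to 31.9), although all 40 had H3K4me3 and all 40 H3K27ac, and the median H3K27ac fold enrichment was 13.4 against 9.44 over all acetylated starts. The highest were RPS19 (5.15), RPL18 (4.80), RPL35 (4.39), RPL7 (4.18), RPL4 (4.08) and RPS18 (3.93), and RPL10, RPL11 and RPL13 were among those without. MTA2 was at 13 of the 40 (32.5%), CHD4 at 5 (12.5%) and RBBP4 at 5 (12.5%). Over all 20033 protein-coding genes the shares were 21.1% for MTA2, 10.75% for CHD4 and 22.65% for RBBP4. Only 11654 of these genes had H3K4me3 at a start, so they are not a matched reference for the 40. Promoters with neither HDAC2 nor H3K4me3 had MTA2 in 0.748%, CHD4 in 0.469% and RBBP4 in 0.429%. The subunit shares among genes with H3K4me3 were not counted. In all 75 genes named RPL or RPS with a number, taken after the list was seen, HDAC2 was at 18 (24.0%, 15.8 to 34.8), MTA2 at 20 and H3K4me3 at 71. The replication-dependent histone genes on chromosome 6 had HDAC2 at 14 of 55.

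Developmental genes were mixed. HOX genes had HDAC2 at 23 of 39 starts (59.0%, 43.4 to 72.9), with HOXC11 (7.25), HOXD3 (6.50), HOXD11 (6.48), HOXA7 (6.43), HOXC10 (6.31) and HOXA5 (6.03) the highest. HOXA7 and HOXA5 carried H3K27me3 (8.34 and 7.74) beside H3K4me3 and MTA2. Other developmental regulators had it at 15 of 48 (31.2%), with IRX2 (6.66), NKX6-1 (6.50) and EN2 (6.38) among the higher values, and all 15 had H3K4me3. Neural crest and neuronal genes had it at 10 of 24, led by NEUROG2 (6.57), TFAP2A (6.42) and MSX2 (5.67). Muscle genes had it at 0 of 15 (upper bound 20.4%), blood cell genes at 1 of 18 (KIT, 5.80), epithelial genes at 1 of 16 (KRT18, 4.31) and mesenchymal genes at 7 of 16, led by VIM (6.23). No muscle gene had H3K4me3 at its start.

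**Figure D4:**
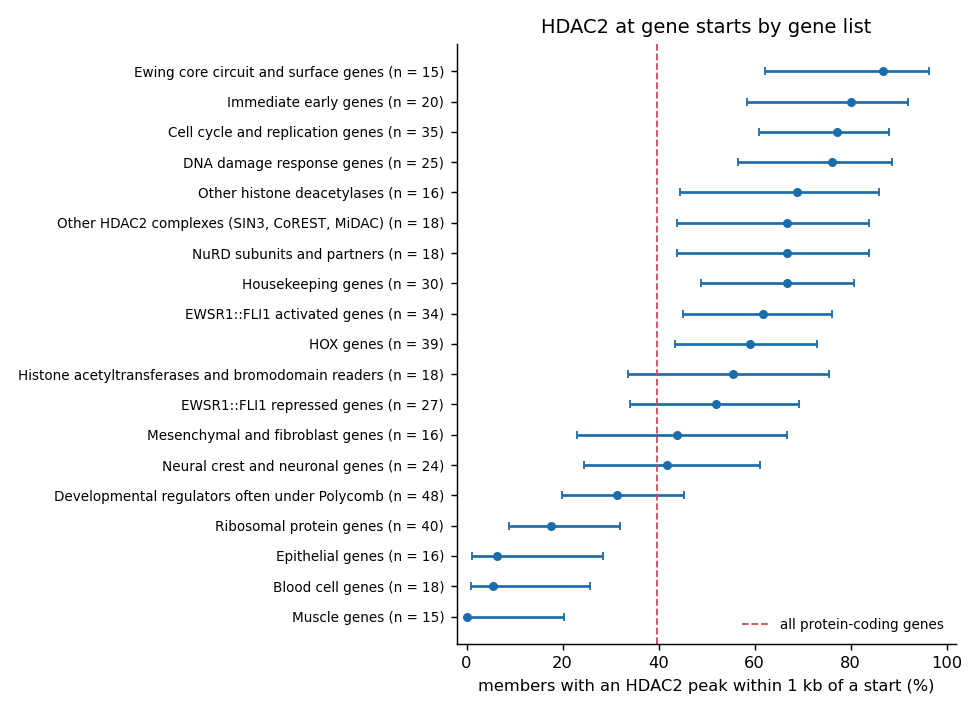
Share of the members of 19 gene lists (%) with an HDAC2 peak within 1 kb of a start; points are shares and bars 95% Wilson intervals over genes, and the dashed line is the 39.6% of all protein-coding genes. Ribosomal protein genes stand at 17.5% and the Ewing core list at 86.7%.

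Promoters with tall HDAC2 peaks differed in base composition and letters from those with low ones. Of 22054 promoters of 300 bases (250 before the start and 50 from it), 6729 overlapped an HDAC2 peak. These held a median of 29 CpG, against 26 in promoters with H3K4me3 and no HDAC2 and 7 in those with neither. From the weakest to the strongest quintile by HDAC2 fold enrichment, the median went from 27 to 32.5 CpG and the GC content from 65.7% to 71.3%. The GC box GGGGCGGG, bound by SP and KLF factors, was in 36.5% (34.0 to 39.2) of the weakest quintile, against 50.7% (48.1 to 53.4) of the strongest, and in 29.5% of all promoters. The ETS core CCGGAAGT was in 11.7% (10.1 to 13.6) and 3.94% (3.02 to 5.11), and in 5.30% of all. GCGCATGC, bound by NRF1, was in 6.32% and 2.23%, and in 3.71% of all, and AAGATGGC, bound by YY1, was in 6.91% and 2.75%, and in 3.54% of all.

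Promoters with H3K4me3 but no HDAC2 were near the weakest quintile in some of these letters and not in others. The ETS core was in 9.85% of these 5301 promoters, the GC box in 38.3%, the NRF1 letters in 6.58% and the YY1 letters in 6.75%. The NFY letters CCAATC were in 20.8% of them, in 21.8% of the weakest quintile and in 14.3% of the strongest. The E-box letters CACGTG were in 9.17% (8.42 to 9.98), against 12.4% (10.75 to 14.3) of the weakest quintile. The TCTCGCGA element was in 3.28%, against 2.01% of the weakest quintile and 2.02% of H3K4me3 promoters with HDAC2. Ranked by −log10 p the differences shrank: from the lowest to the highest quintile the ETS core went from 8.47% to 5.72% and the GC box from 39.6% to 46.2%. GC content moved with both the letters and the height, and its part was not tested.

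At genes that make no protein the share with HDAC2 varied by kind. Of 443 transfer RNA genes on the chromosomes, transcribed by RNA polymerase III, 161 (36.3%) had an HDAC2 peak within 500 bp, 219 (49.4%) RBBP4, 194 (43.8%) CHD4 and 109 (24.6%) MTA2. Transfer RNA genes cluster, so neighbours can share a peak. By the same 500 bp rule HDAC2 was at 47.25% of protein-coding genes, RBBP4 at 30.95%, CHD4 at 20.7% and MTA2 at 30.3%. HDAC2 was at 18.8% of small nuclear RNA genes, 18.1% of long noncoding RNA genes, 5.75% of microRNA genes and 1.08% of small nucleolar RNA genes. The rule takes the whole gene and 500 bp around it, so a longer gene has more room for a peak. Gene length differs between these kinds and was not adjusted for. Among the 2042 HDAC2 peaks with H3K4me3 away from protein-coding starts, 654 (32.0%, 30.0 to 34.1) had an end or listed start of such a gene within 1 kb, 464 of them beside long noncoding RNA genes. Without H3K4me3 the share was 6.24% (5.78 to 6.74) of 9823 peaks. A peak could count for more than 1 kind of gene.

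Across chromosomes the HDAC2 list followed gene content only in part. Per megabase it was densest on chromosome 17 (12.3), 19 (11.1), 22 (10.1) and 6 (9.30) and sparsest on X (2.47), 18 (3.05) and 4 (3.84). Per 100 protein-coding genes the order was another, with chromosome 13 (168.9), 6 (151.3) and 8 (142.0) highest and 19 (44.9) and X (45.4) lowest. The sparse chromosomes 18 and 4 had high median fold enrichments of 5.98 and 5.73, and the share of peaks with all 3 other subunits was 14.5% on X and 14.7% on 18 against 29.9% on 21 and 29.2% on 6. No peak lay on Y. Copy number was not analysed here.

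**Figure D5:**
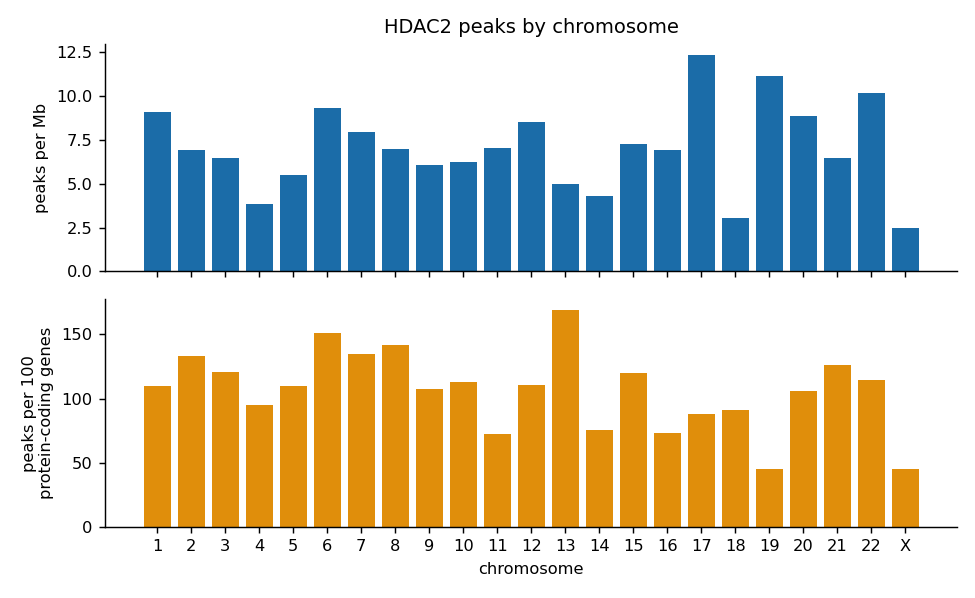
HDAC2 peaks by chromosome, per megabase (top) and per 100 protein-coding genes (bottom); bars are counts from 1 list and have no error. Chromosome 17 is highest per megabase (12.3) and chromosome 13 per 100 genes (168.9), while X is low in both.

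Locally, HDAC2 peaks crowded over a few genes. The densest bin of 1 Mb was on chromosome 8 from 143000001 to 144000000, with 52 peaks and 32 protein-coding genes. Chromosome 8 has no listed starts, and 25 of the peaks lay within 1 kb of either annotated end of a gene. The next bin, on chromosome 16 from 85000001, had 48 peaks, 5 of them at starts. It holds much of GSE1, a coregulator gene found with CoREST. GSE1 had 39 HDAC2 peaks in or within 5 kb of it, the most of any gene. RERE, a nuclear corepressor gene, had 26, the homeobox gene CUX1 18, NCKAP5 16 and LRRFIP1 15, and EFNA5, HDAC9, NFIA, SOX6, STARD13, TENM2 and TRAPPC9 had 14 each. Per 100 kb, LRRFIP1 had 9.14, GSE1 7.55, RERE 5.47 and TENM2 1.08, so the order per length was another. Of the peaks in GSE1 20 overlapped H3K27ac and 1 FLI1, in RERE 15 and 3, and in the deacetylase gene HDAC9 11 and 2. The bins on chromosome 17 from 81000001, 19 from 1000001, 15 from 74000001 and 9 from 129000001 had 46, 42, 40 and 40. A bin on chromosome 8 from 126000001, which holds 1 protein-coding gene, had 38 peaks with a median fold enrichment of 3.73, of which 18 had all 3 other subunits.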

How the data were processed

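ChIP-seq peak lists of 9 targets in SK-N-MC cells, 1 sample each, were used, with samples assigned by the antibody target in their titles. Per the submitters' processing notes, the tools were bedtools 2.27.1, deepTools 3.2.1, SAMtools 1.9, BWA 0.7.17, FastQC 0.11.7 and Trimmomatic 0.36, and the build GRCh38. The deposited peak names carry MACS2, but its version, control library and any pooling are not stated in the sources used here. The authors' peak caller gave each deposited peak a fold enrichment (a ratio to local background), a −log10 p and a −log10 q, which rank peaks only within a list. A region with more background or more copies reaches a given −log10 p at a lower ratio. Read depth is unknown, and a site without a peak may have been missed. Peak numbers ran without gaps in the HDAC2, CHD4 and RBBP4 lists, while 13 to 213 numbers were not present in each of the other 6, which may lower the overlaps with them.

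Positions were made 1-based. Genes, starts and promoters came from RefSeq tables of GRCh38. The promoter table lists starts for 15841 of 20033 protein-coding genes, and for the other 4192, among them those of chromosome 8, either annotated end stood in. Peaks overlapped if they shared at least 1 bp, a gene start had a window of 1 kb, and Wilson intervals are at 95%. Motifs were searched on both strands as exact letters, and matches of different motifs may overlap. The CRE, E2F, TATA and AP-1 letters were searched too and are not described. The overlap, distance and share functions were checked on simulated intervals. Python 3.11.15 with pandas 2.3.3, numpy 2.4.6, scipy 1.17.1 and matplotlib 3.10.9 was used.

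With 1 sample a target, no test was planned or run. The HDAC2 peaks and the 19 gene lists, whose 475 entries were found by symbol or synonym, were chosen with earlier results of these data known. Peaks and genes are named by rule, with some left out for length. The rule takes the 10 tallest peaks in each of 3 places, the 10 genes with most peaks (with ties), the 5 densest bins, the 5 widest peaks, the 5 of smallest −log10 p, the 5 tallest of each chromatin class, and of each list up to 6 members with the tallest peaks and up to 3 without. The printed promoters, the genes without H3K4me3 and the bin with 1 gene were named after their values were seen. Alternatives were a −log10 p of at least 15, the 2000 tallest peaks, stricter overlap, −log10 p as height, other windows and gene sets, and autosomes. Some members of the marker and gene lists and some peaks are not reported here.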

Additional observations from a re-analysis of the deposited data

How the results depend on the processing

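When every list was restricted to a −log10 p of 15 or more, the median fold enrichment was 5.37 and the median width 489 bp, H3K27ac overlapped 48.5% and no mark 23.5% of HDAC2 peaks, MTA2 39.5%, all 3 subunits 15.9% and FLI1 4.07%, and 34.5% of protein-coding genes had HDAC2. Of the 2000 tallest peaks, 17.6% lay at starts and 2.95% on chromosome 17 (4.97% of all peaks), H3K27ac overlapped 44.2%, no mark 28.9%, MTA2 75.5%, all 3 subunits 51.5% and FLI1 20.6%, and 1.89% of genes and 0 of 40 ribosomal protein genes had HDAC2. With the HDAC2 summit inside the other peak, the shares were 34.3% for H3K27ac, 39.3% for no mark, 40.1% for MTA2, 19.0% for all 3 subunits and 4.22% for FLI1. With at least 50% of the HDAC2 peak covered, they were 37.7%, 35.3%, 32.6%, 13.5% and 1.94%. Start windows of 2.5 kb and 0.5 kb gave 46.9% and 38.1% of peaks at starts and 41.7% and 37.7% of genes with HDAC2. All genes of the reference table in place of protein-coding genes gave 48.6% of peaks at starts. Genes with a listed start alone, an alternative chosen after seeing the data, gave 32.9% of peaks and 41.2% of genes.

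Ranked by −log10 p, the ETS letters were in 8.47% of promoters of the weakest and 5.72% of those of the strongest quintile, and the GC box in 39.6% and 46.2%. The difference between strongest and weakest quintile changed sign in 6 cases. For H3K27ac it was −11.5 percentage points by fold enrichment, 19.0 by −log10 p (chosen after seeing the data) and 0.50 within the 2000 tallest peaks. For unmarked peaks it was 16.4, −11.2 and −1.25. For H3K4me1 it was 18.2, and −2.57 with the summit inside and −0.024 with 50% covered. The cause was not tested. In all, 77 alternative values lay within the interval of the reported value (a count, within 1.5 times), 78 lay outside it and 6 changed sign. The subsets of summits around starts were also chosen after seeing the data. No paired analysis was possible because each target has 1 sample. Depth is unknown, so no limit of detection can be given.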
